A study of Homo sapiens with 8 samples.

Results

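HPCAL4 and 6 relatives of the neuronal calcium sensor family (HPCAL1, HPCA, NCALD, VSNL1, NCS1 and RCVRN) were followed in uveal melanoma (UM) cells treated with histone deacetylase (HDAC) or BET inhibitors. The 7 genes were taken by symbol from a count table of 35238 gene symbols. HPCAL4 was chosen by its rise in counts with every drug, so its difference from control is given as a description with no test, and the other 6 were taken as its relatives. A filter on low counts left 15085 genes for testing, and 4 of the 7 genes passed it (HPCAL4, HPCAL1, NCALD and NCS1).

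RNA was sequenced from MP38, a single BAP1-mutant UM cell line, 24 h after treatment, with 2 libraries per group and 8 in all. The control group received 0.1% DMSO, the vehicle. The treated groups received 40 nM romidepsin, 40 nM quisinostat or 1200 nM mivebresib, all in the same final concentration of DMSO. Romidepsin and quisinostat block HDACs, enzymes that take acetyl groups off histones, and mivebresib blocks the BET proteins that bind those acetyl groups. The wells of a group were cultured separately from 1 cell line, so p-values measure the spread between these libraries only.

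Neuronal calcium sensors are small proteins that bind calcium through EF-hand motifs. Most carry a fatty acid, myristate, that several of them expose when calcium binds, which moves the protein to membranes. They are best known in neurons and photoreceptors, where they tie a rise in calcium to channels, receptors, kinases and lipid enzymes. HPCAL4, HPCAL1, HPCA (hippocalcin), NCALD (neurocalcin delta) and VSNL1 (visinin-like 1) form the visinin-like branch, and HPCAL4 is found mainly in brain. NCS1 is the widely expressed founder of the family, and RCVRN (recoverin) is the member best known from photoreceptors.

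Every library held between 28483235 and 29359024 counts. The melanocytic markers MLANA, PMEL, TYR, TYRP1, DCT, MITF and SOX10 summed to between 3518 and 5121 CPM (counts scaled to the library's total) in all 8 libraries, most of it TYRP1, while DCT had at most 5 counts in any. Of the 6 tested, 1 fell with romidepsin, 3 with quisinostat and 4 with mivebresib, beside 15.8%, 25.1% and 24.1% of all tested genes. SOX10 with mivebresib fell the most (log2 FC of -1.93, edgeR adjusted p = 3.8e-06). Among markers of other cells, RPE65 and RLBP1 had at most 3 counts in any library, and CDH5 of endothelium and CD3E of T cells had 0. BEST1 had 281 and 340 counts in the control and 583 and 570 with romidepsin, COL1A1 had 40 and 45 in the control, 143 and 110 with romidepsin and 327 and 251 with quisinostat, and PECAM1 had 2 and 5 in the control and 11 and 17 with quisinostat, all of which passed the test. Other values went down. NRL, a photoreceptor marker, had 34 and 19 counts in the control and 5 and 9 with romidepsin, a fall that passed (log2 FC of -1.96). BEST1 had 162 and 211 counts with mivebresib. PDGFRB, also a fibroblast marker, had 10 and 18 in the control and 5 and 1 with mivebresib, a fall that passed (log2 FC of -2.17). The part of these markers in the results below was not tested. The control libraries differed from each other more than the treated pairs did, with a chi-square per degree of freedom of 58.1 over genes against 9.52 to 9.79 in the treated groups.

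HPCAL4 (ENSG00000116983) lies on the minus strand of chromosome 1 at 39678648 to 39691689 (GRCh38, GENCODE 29). Promoter sequence from RefSeq (GRCh38.p14), covering 250 bases before the RefSeq start and 50 after it, was found for 5 of the 7 genes and not for NCALD or RCVRN. The HPCAL4 promoter is shown because this gene moved with every drug, and those of HPCA and VSNL1 because these relatives stayed within a few reads of 0. The windows are chr1:39691384-39691683 on the minus strand for HPCAL4, chr1:32886241-32886540 on the plus strand for HPCA and chr2:17539722-17540021 on the plus strand for VSNL1. Each of these windows lies inside the GENCODE span of its gene, whose start is further upstream. They are therefore not the sequence before the GENCODE start. Capitals mark CG dinucleotides, the sites of DNA methylation.
HPCAL4: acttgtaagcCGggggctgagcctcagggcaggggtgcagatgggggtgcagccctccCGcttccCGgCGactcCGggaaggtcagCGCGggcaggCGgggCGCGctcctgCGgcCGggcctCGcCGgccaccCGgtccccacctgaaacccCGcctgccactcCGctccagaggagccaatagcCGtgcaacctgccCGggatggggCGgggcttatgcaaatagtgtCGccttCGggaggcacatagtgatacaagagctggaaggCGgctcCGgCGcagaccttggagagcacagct
HPCA: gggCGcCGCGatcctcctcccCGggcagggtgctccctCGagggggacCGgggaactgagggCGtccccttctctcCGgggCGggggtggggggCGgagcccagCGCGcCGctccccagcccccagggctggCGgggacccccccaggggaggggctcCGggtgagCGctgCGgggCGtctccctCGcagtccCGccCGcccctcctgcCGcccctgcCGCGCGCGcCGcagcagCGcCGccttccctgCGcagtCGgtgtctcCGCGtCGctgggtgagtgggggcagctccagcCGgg
VSNL1: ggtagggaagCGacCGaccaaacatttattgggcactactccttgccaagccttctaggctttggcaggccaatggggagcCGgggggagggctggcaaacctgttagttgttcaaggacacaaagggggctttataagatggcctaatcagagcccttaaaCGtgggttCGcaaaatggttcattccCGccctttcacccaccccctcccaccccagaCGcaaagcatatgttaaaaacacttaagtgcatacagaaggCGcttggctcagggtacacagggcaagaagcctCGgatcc

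The HPCAL4 window held 25 CG dinucleotides, and 32.0% of all 35116 promoters in the table held as many or more. HPCA held 35, HPCAL1 40 and NCS1 42, so the HPCAL4 window was less CG-rich than these 3. VSNL1 held 9, below the median of 14 over all promoters. Of 6 motifs searched on both strands, the GC box GGGCGG was in all 5 promoters and in 45.0% of all promoters. The E-box CACGTG was in HPCAL1 alone (7.26% of all promoters) and the TATA box TATAAA in VSNL1 alone (11.5%). The cyclic AMP response element TGACGTCA and 2 half-sites of the neuronal repressor REST, TTCAGCACC and GACAGCGCC, matched none of the 5 and 1.85%, 0.376% and 0.558% of all promoters. These matches describe letters in a window and not binding.

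HPCAL4 was close to silent in the control and rose to at least 156 counts with each drug. Both controls were in single figures, at 4 and 7 counts, against 198 and 158 with romidepsin, 899 and 886 with quisinostat and 176 and 156 with mivebresib. All 6 treated libraries were above both controls, the quisinostat libraries were the highest, and the romidepsin and mivebresib libraries overlapped.

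The mean level was 0.188 ± 0.0735 CPM (SD, n = 2) in the control, 6.12 ± 0.984 CPM with romidepsin, 30.9 ± 0.218 CPM with quisinostat and 5.80 ± 0.458 CPM with mivebresib. The 11 reads of both controls allow a level of 0.0939 to 0.336 CPM (95% Poisson interval, counting error only). From the edgeR model over all 8 libraries, the log2 FC against control was 4.92 ± 0.39 (SE) with romidepsin, 7.13 ± 0.38 with quisinostat and 4.90 ± 0.39 with mivebresib. In the same order, mean CPM was 32.5, 164 and 30.8 times that of the control. The 3 values share the same control libraries and their few reads. In bulk RNA, fewer cells with a transcript and less of it per cell cannot be told apart.

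Since HPCAL4 was chosen for its rise, its place among all genes only describes that choice. It ranked 55th of 15085 tested genes by log2 FC with romidepsin, 57th with quisinostat and 34th with mivebresib. Among the 14256 genes with more than 3 counts in each control library, a limit set after the values were seen, it ranked 1st with every drug. HPCAL4, with 4 and 7 control counts, only just passed that limit, so this rank depends on where the limit lies. RAB39B, with 6 and 2 control counts, fell outside it and had a log2 FC of 5.44 with romidepsin. Between drugs, HPCAL4 was 2.21 ± 0.14 log2 units higher with quisinostat than with romidepsin, which was given at the same dose, a ratio of 5.06 in mean CPM. The difference of mivebresib minus romidepsin was -0.02 ± 0.15, with a 95% interval of -0.37 to 0.32. Mivebresib was 2.23 log2 units below quisinostat (-2.23 ± 0.14), and its dose was not matched to the other drugs.

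**Figure D1:**
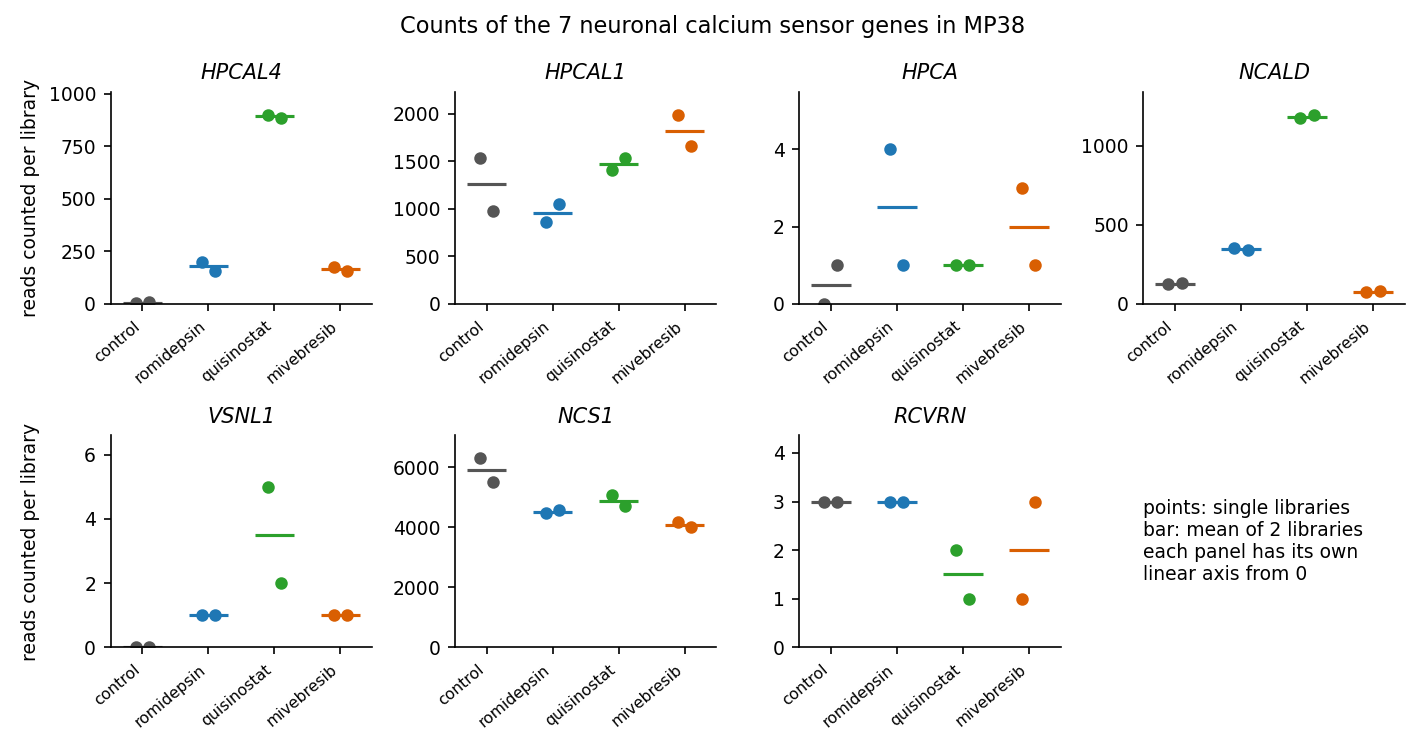
Reads counted per library (linear axis from 0, a separate scale per panel) for the 7 genes in the 4 groups. Points are single libraries and bars the mean of 2. HPCAL4 rises from 4 and 7 reads in the control to at least 156 with each drug, NCALD rises with the HDAC inhibitors and is lowest with mivebresib, and HPCA, VSNL1 and RCVRN stay at or below 5 reads.

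The 5 genes with the profile most like that of HPCAL4 were found by likeness, measured as the root mean square difference in log2 CPM less the control mean over the 8 libraries, among 12717 genes. KIF5C, a neuronal kinesin heavy chain, was nearest at 0.532. It had 61 and 86 counts in the control, 1462 and 1320 with romidepsin, 5801 and 6256 with quisinostat, and 982 and 1034 with mivebresib. PARM1 followed at 0.723, RAB39B, a small GTPase, at 0.788, CDK5R2, an activator of the neuronal kinase CDK5, at 0.959 and LRRN1 at 1.00. As with HPCAL4, the control counts of PARM1 (3 and 6), RAB39B (6 and 2) and LRRN1 (0 and 2) were very low, while CDK5R2 had 14 and 12.

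The neuronal marker list moved in these libraries too. Its 7 genes (RBFOX3, SNAP25, SYT1, STMN2, ELAVL3, ELAVL4 and MAP2) summed to 22.3 CPM in both controls, 43.7 to 48.3 CPM with romidepsin, 121 CPM with quisinostat and 104 to 118 CPM with mivebresib. MAP2 alone made up most of each sum, at 21.1 CPM on average in the control and 109 CPM with mivebresib. Of the 6 tested, 4 rose with romidepsin, 6 with quisinostat and 1, MAP2, with mivebresib by the edgeR quasi-likelihood test with Benjamini-Hochberg adjustment over all genes, beside 15.2%, 28.0% and 22.2% of all tested genes. The list's median log2 FC was 1.09, 3.19 and 0.09. ELAVL4 had at most 3 counts in every library. Whether these markers have a part in the HPCAL4 result was not tested.

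NCALD, which is known to bind clathrin, tubulin and actin, was the relative that moved most, rising with both HDAC inhibitors and falling with mivebresib. It lies on the minus strand of chromosome 8 at 101686543 to 102124907 (ENSG00000104490). Counts of 124 and 130 in the control compare with 356 and 342 with romidepsin, 1175 and 1196 with quisinostat, and 73 and 82 with mivebresib. The groups did not overlap, and mivebresib was the only drug below the control.

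NCALD rose with romidepsin from 4.34 ± 0.167 to 12.0 ± 0.364 CPM (SD, n = 2), a log2 FC of 1.39 ± 0.10 (edgeR adjusted p = 9.5e-05). With quisinostat it reached 41.1 ± 0.648 CPM, a log2 FC of 3.04 ± 0.10 (edgeR adjusted p = 7.78e-07). With mivebresib it fell to 2.71 ± 0.239 CPM, a log2 FC of -0.70 ± 0.12 (edgeR adjusted p = 0.00175). The direct contrasts between drugs also passed, with quisinostat 1.65 log2 units above romidepsin (edgeR adjusted p = 2.88e-05) and mivebresib 2.09 below romidepsin (log2 difference -2.09, edgeR adjusted p = 4.53e-06). All 6 NCALD comparisons kept their side of the threshold under each of the 16 alternatives tried.

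NCS1, which binds and activates phosphatidylinositol 4-kinase beta and regulates the dopamine D2 receptor, was the most abundant of the 7 and fell modestly with each drug. It lies on the plus strand of chromosome 9 at 130172578 to 130237304 (ENSG00000107130). There were 6306 and 5500 counts in the control, 4464 and 4573 in romidepsin-treated cells, 5095 and 4698 in quisinostat-treated cells, and 4177 and 4007 in mivebresib-treated cells. Every treated library was below both controls.

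The mean level of NCS1 went from 202 ± 18.5 CPM in the control to 155 ± 2.34 (romidepsin), 170 ± 9.18 (quisinostat) and 143 ± 3.31 (mivebresib). Its log2 FC was -0.45 with both HDAC inhibitors (edgeR adjusted p = 0.00601 for romidepsin and 0.00278 for quisinostat) and -0.52 with mivebresib (edgeR adjusted p = 0.00163), each with an SE of 0.09. No difference between drugs passed, though mivebresib minus quisinostat did with library size alone (-0.25, edgeR adjusted p = 0.0427), and the 95% interval for quisinostat minus romidepsin was -0.20 to 0.20. The fall with romidepsin missed the threshold without romidepsin replicate 1 (edgeR adjusted p = 0.0613) and in a fit of its 4 libraries alone (0.0521). Scaling by library size alone, which moved the median of all genes to 0.20 with quisinostat, left NCS1 at -0.25 with that drug (edgeR adjusted p = 0.0444).

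HPCAL1, a relative of HPCAL4 expressed in many tissues, rose with mivebresib only, and less firmly. It lies on the plus strand of chromosome 2 at 10302889 to 10427617 (ENSG00000115756). Its control libraries stood far apart, at 1536 and 981 counts, beside 867 and 1056 with romidepsin, 1407 and 1539 with quisinostat, and 1991 and 1659 with mivebresib. The mivebresib libraries were above both controls, while the other 2 drugs overlapped the control.

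The mean level of HPCAL1 was 43.0 ± 13.2 CPM in the control, against 33.0 ± 4.52 (romidepsin), 51.1 ± 3.40 (quisinostat) and 63.8 ± 7.81 (mivebresib). The log2 FC with mivebresib was 0.55 ± 0.19 (edgeR adjusted p = 0.0428). It was -0.45 ± 0.19 with romidepsin (0.113) and 0.05 ± 0.19 with quisinostat (0.840), neither past the threshold. Mivebresib was 1.00 log2 unit above romidepsin (edgeR adjusted p = 0.00292), and this difference passed under all 16 alternatives.

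The comparison of HPCAL1 with control turned on single libraries. Without control replicate 2 the mivebresib value was 0.28 (edgeR adjusted p = 0.116) and the romidepsin value passed at -0.72 (0.00202), and without control replicate 1 the quisinostat value passed at 0.38 (0.0436). The mivebresib rise also missed the threshold without mivebresib replicate 1 (0.40, adjusted p = 0.236), without mivebresib replicate 2 (0.69, 0.0624) and without any 1 library of the other drugs (0.0555 to 0.0626). The difference of mivebresib minus quisinostat (0.50, edgeR adjusted p = 0.0499) missed under 12 of 16 alternatives.

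HPCA, VSNL1 and RCVRN did not reach the level needed for a test. HPCA (ENSG00000121905, chromosome 1, 32885994 to 32898441, plus strand), the hippocampal member, had 0 and 1 counts in the control and between 1 and 4 in the treated libraries. VSNL1 (ENSG00000163032, chromosome 2, 17539126 to 17657018, plus strand) had 0 counts in both controls, 1 in each romidepsin and mivebresib library, and 5 and 2 with quisinostat. RCVRN (ENSG00000109047, chromosome 17, 9896320 to 9905621, minus strand) had 3 counts in each control and romidepsin library, 2 and 1 with quisinostat, and 1 and 3 with mivebresib. No difference was detectable at these counts.

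HPCA overlaps TMEM54 on the opposite strand, the only overlap of the 7 genes with another gene of the count table. Annotated genes outside that table were not searched. The libraries were made strand-specific, but whether reads were counted by strand is not given in the sources used here. TMEM54 had 340 to 782 counts per library, far above HPCA.

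Of the 3 relatives tested, 1 rose and 1 fell with romidepsin, 1 rose and 1 fell with quisinostat, and 1 rose and 2 fell with mivebresib (edgeR adjusted p below 0.05). Over all tested genes, 15.2% rose and 15.8% fell with romidepsin, 28.0% and 25.1% with quisinostat, and 22.2% and 24.1% with mivebresib. At the study's added limit of a log2 FC beyond 1.5, only NCALD with quisinostat passed, beside 11.2% of all genes in that direction. Between drugs, 1 of the 3, NCALD, was past both limits each time. For quisinostat against romidepsin it was 1 higher and 0 lower, beside 5.41% and 0.179% of all genes. For mivebresib against romidepsin 0 were higher and 1 lower, beside 2.52% and 6.7%, and against quisinostat again 0 higher and 1 lower, beside 1.73% and 12.6%. On the adjusted p alone HPCAL1 was also higher with mivebresib than with romidepsin or quisinostat, beside 23.7% and 26.2% of all genes.

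**Figure D2:**
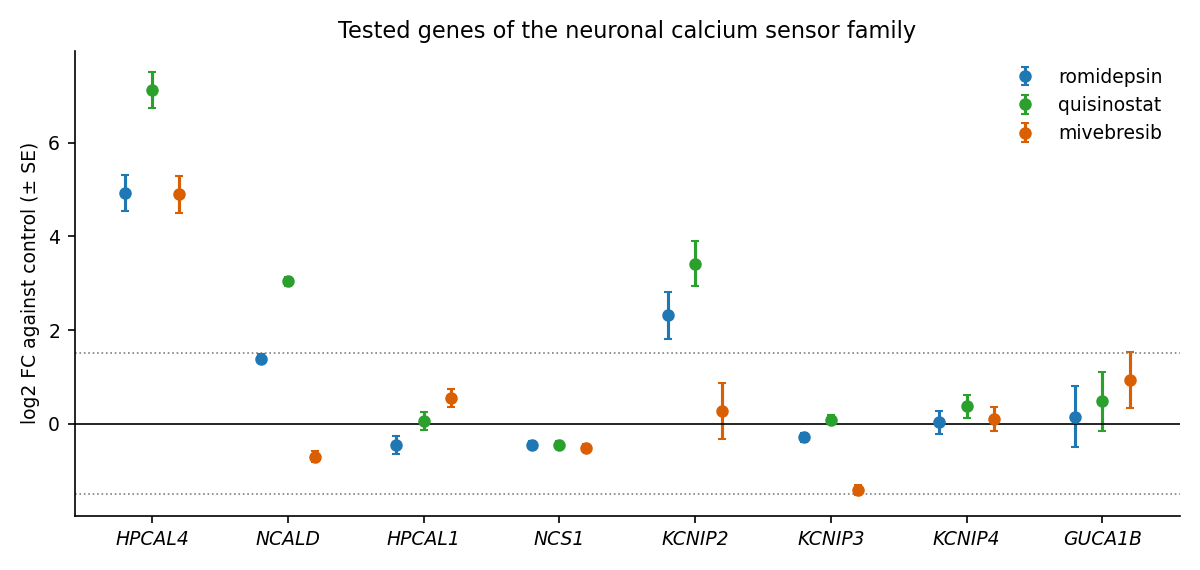
Log2 FC against control (y axis, ± SE from the edgeR model) for the 8 tested genes of the wider neuronal calcium sensor family, with 1 point per drug. Dotted lines mark 1.5 either way. HPCAL4 lies between 4.90 and 7.13 with the 3 drugs, NCALD and KCNIP2 are high with quisinostat, and NCS1 is close to -0.5 with each.

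Levels of different genes were compared per kilobase of the longest coding transcript of each. In the control the order was NCS1, HPCAL1, NCALD, HPCAL4, RCVRN, HPCA and VSNL1. NCS1 made up 63.7% ± 4.62 (SD, n = 2) of the summed CPM per kilobase of the 7 genes and HPCAL1 34.3% ± 5.05, so these 2 supplied nearly all of it. HPCAL4 supplied 0.0635% ± 0.0341, next to 0.0578% ± 0.00974 for RCVRN, a gap smaller than their spread.

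With quisinostat the same share was 43.8% ± 2.37 for NCS1, 33.9% ± 2.26 for HPCAL1, 13.9% ± 0.219 for NCALD and 8.21% ± 0.0582 for HPCAL4. HPCAL4 held 2.40% ± 0.497 with romidepsin and 1.88% ± 0.00838 with mivebresib. With mivebresib HPCAL1 reached 51.6% ± 2.49 and NCS1 45.2% ± 2.33, and HPCAL4 stood above NCALD at 1.13% ± 0.183. The sum of the 7 genes was 63.8 ± 10.4 CPM per kilobase in the control, 52.6 ± 2.45 after romidepsin, 77.5 ± 0.00305 after quisinostat and 63.5 ± 4.73 after mivebresib.

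Of the genes beside HPCAL4, HEYL and BMP8B also rose with every drug, and PPIE rose with none. PPIE, a cyclophilin whose annotated start lies 493 bases away on the opposite strand, had 625 and 550 counts in the control, 532 and 532 with romidepsin, 555 and 524 with quisinostat, and 645 and 629 with mivebresib. Only its fall with quisinostat passed (log2 FC of -0.30, edgeR adjusted p = 0.0193), and the other values were -0.21 for romidepsin (0.109) and 0.13 for mivebresib (0.259). The quisinostat value missed the threshold without control replicate 1 (0.0695), without quisinostat replicate 1 (0.0673), without quisinostat replicate 2 (0.113) and with library size alone (0.383), and the romidepsin value passed without control replicate 2 (-0.28, 0.0430). HPCAL4 and PPIE therefore start head to head, and PPIE kept at least 524 counts in all 8 libraries while HPCAL4 began at 4 and 7.

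HEYL, a transcriptional repressor downstream of Notch that lies 38703 bases from HPCAL4, had 4 and 6 counts in the control, 33 and 45 with romidepsin, 68 and 72 with quisinostat, and 15 and 14 with mivebresib. It rose with each drug, by 2.87 ± 0.42, 3.60 ± 0.41 and 1.53 ± 0.45 log2 units (edgeR adjusted p = 0.00083, 5.68e-05 and 0.0178). The mivebresib call was lost without control replicate 1 (0.0984) or either mivebresib library (0.0690 and 0.0534). BMP8B, a bone morphogenetic protein, rose by 0.79, 1.43 and 1.51 (edgeR adjusted p = 0.00603, 0.000101 and 9.58e-05), though its annotated span overlaps PPIE on the opposite strand and OXCT2. The romidepsin rise of BMP8B missed the threshold without romidepsin replicate 1 (0.0505).

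NT5C1A, the nearest gene on the other side, had 0 counts in both controls and both mivebresib libraries, 2 and 0 with romidepsin, and 11 and 16 with quisinostat. The quisinostat level was at least 4.56-fold higher than a floor of 3 counts per control library. PABPC4, a poly(A)-binding protein, had log2 FC of -0.43, -0.38 and 0.63 (edgeR adjusted p = 0.00653, 0.00573 and 0.000474). Its fall was lost without romidepsin replicate 1 (0.0582) or 2 (0.0572), and the fall with quisinostat under library size alone (0.107). OXCT2 had at most 8 counts in any library and was not tested.

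**Figure D3:**
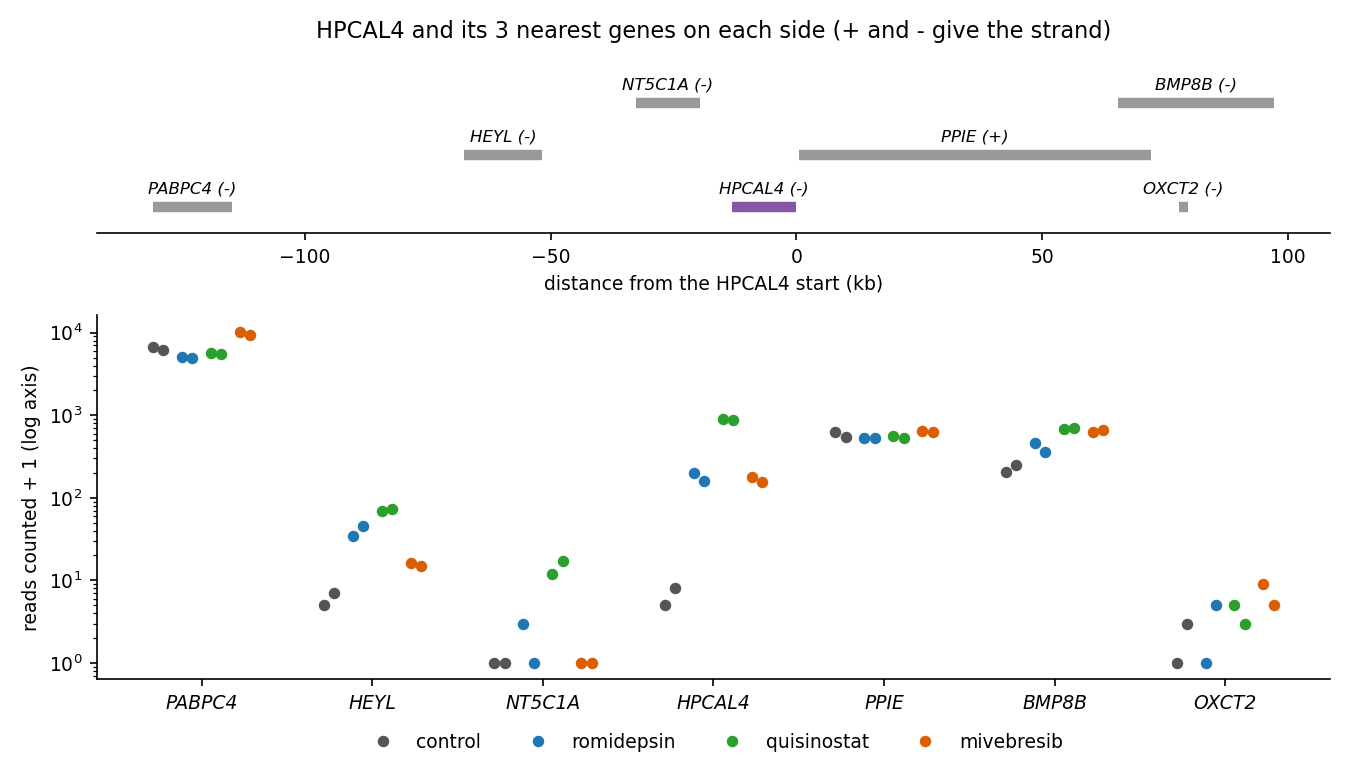
Top, HPCAL4 and the 3 nearest genes of the count table on each side, by distance from the HPCAL4 start in kb. Bottom, reads counted plus 1 per library (log axis) for the same genes, with 1 point per library. HPCAL4 and HEYL are above the control with every drug, while PPIE stays between 524 and 645 reads in all 8 libraries.

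The wider calcium signalling genes were read from 4 lists of 71 genes in all, of which 56 were tested. With romidepsin 13 rose and 6 fell, with quisinostat 21 rose and 10 fell, and with mivebresib 9 rose and 14 fell (edgeR adjusted p below 0.05). Over all tested genes the same shares were 15.2% and 15.8%, 28.0% and 25.1%, and 22.2% and 24.1%. Past a log2 FC of 1.5 as well, 6 rose and 0 fell with romidepsin, beside 3.77% and 0.312% of all tested genes, and 13 rose and 0 fell with quisinostat, beside 11.2% and 1.03%. With mivebresib 3 rose and 1 fell, beside 3.96% and 4.36%. The median log2 FC over the 56 genes was 0.05, 0.32 and 0.06 with the 3 drugs, and over all tested genes it lay between -0.01 and 0.01. The romidepsin count was lower whichever 1 library was left out, and the mivebresib counts also shifted. Of the 6 that rose with romidepsin, CHRNA4 and SLC8A3 were each lost under 11 of 14 alternatives, CHP2 under 3 of 15 and ATP2B3 under 1 of 15. With mivebresib CHP2 was lost under 2 of 15.

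Among the 7 remaining genes of the sensor family, 4 were tested, with medians of 0.09, 0.42 and 0.19. KCNIP2, a subunit of Kv4 potassium channels, had 4 and 6 counts in the control, 29 and 24 with romidepsin, 73 and 51 with quisinostat, and 4 and 8 with mivebresib. It rose by 2.31 ± 0.50 with romidepsin and 3.42 ± 0.49 with quisinostat (edgeR adjusted p = 0.00609 and 0.000196), while the mivebresib value was 0.27 ± 0.60 (0.739). KCNIP3, also known as the transcriptional repressor DREAM, had 1039 and 911 counts in the control and 381 and 344 with mivebresib, a log2 FC of -1.41 ± 0.10 (edgeR adjusted p = 1.65e-05). KCNIP4 and GUCA1B did not pass with any drug, and GUCA1A, GUCA1C and KCNIP1 were not tested.

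Of 25 binding partners and targets, 19 were tested, and 3 rose and 2 fell with romidepsin, 5 and 5 with quisinostat, and 4 and 7 with mivebresib, read against 15.2% and 15.8%, 28.0% and 25.1%, and 22.2% and 24.1% of all tested genes. The medians were -0.04, 0.08 and -0.04, the last 0.01 when CHRNA4, at 0 with mivebresib, was left out. ITPR1, an inositol trisphosphate receptor that releases calcium from the endoplasmic reticulum, had 300 and 452 counts in the control and 1461 and 1841 with mivebresib, a rise of 2.14 ± 0.20 (edgeR adjusted p = 7.6e-05). ITPR1 also rose with quisinostat, by 0.71 ± 0.21 (edgeR adjusted p = 0.0188), a call lost under 2 of 16 alternatives. In these the value was 0.42 without control replicate 1 and 0.57 without quisinostat replicate 2. The related ITPR2 and ITPR3 did not rise with mivebresib (-0.04, edgeR adjusted p = 0.883, and -0.76, 0.00404). With quisinostat ITPR2 fell (-0.66, edgeR adjusted p = 0.0121) and ITPR3 rose (0.84, 0.00143). DRD2, the dopamine D2 receptor bound by NCS1, had 17 and 11 counts in the control and 95 and 101 with quisinostat, a rise of 2.62 ± 0.28 (edgeR adjusted p = 7.57e-05). With mivebresib DRD2 rose by 1.08 ± 0.31 (edgeR adjusted p = 0.0171). This call was lost under 4 of 15 alternatives, among them a fit of its 4 libraries alone (0.0511) and each fit without 1 mivebresib library. Without control replicate 2, where it was also lost, the value was 0.82.

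CHRNA4, the nicotinic receptor subunit whose surface level VSNL1 is known to affect, had 1 count in the 2 controls together and 35 and 36 with quisinostat. The ratio in that comparison was 72.0, with a 95% exact binomial interval from 12.5 to 2883 that covers counting error only. NMT2, one of the enzymes that attach myristate to these sensors, had log2 FC of 0.01, 0.83 and 1.43, of which the last 2 passed (edgeR adjusted p = 0.000271 and 2.02e-05). NMT1, the more abundant enzyme of this kind on the list, went the other way with quisinostat. It had 4287 and 4186 counts in the control, 3293 and 3084 with quisinostat, and 4370 and 4368 with mivebresib. Its log2 FC with quisinostat lay between -0.62 and -0.39 over the alternatives. PI4KB, the lipid kinase bound by NCS1, fell in the quisinostat and the mivebresib libraries (-0.65 and -0.77, edgeR adjusted p = 0.000145 and 7.65e-05).

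Of 21 other EF-hand calcium binders, 16 were tested, and 3 rose and 0 fell with romidepsin, 6 and 2 with quisinostat, and 1 and 5 with mivebresib, with medians of -0.01, 0.35 and -0.06. The shares of all tested genes were again 15.2% and 15.8%, 28.0% and 25.1%, and 22.2% and 24.1%. CALM2, a calmodulin gene, was the most abundant gene of the 4 lists in the control, at 1040.5 ± 149 CPM. It fell with quisinostat (log2 FC of -0.75 ± 0.11, edgeR adjusted p = 0.000707). CALB2 (calretinin) had 62 and 48 counts in the control and 517 and 465 with quisinostat, a rise of 2.98 ± 0.23 (edgeR adjusted p = 1.49e-05). CALB2 also rose with romidepsin (115 and 123 counts) and fell with mivebresib (41 and 21). These calls were lost under 2 of 16 and 12 of 16 alternatives.

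CALN1 (calneuron 1) rose with quisinostat and fell with mivebresib, as NCALD did, but unlike NCALD it did not pass with romidepsin. It had 31 and 34 counts in the control, 43 and 45 with romidepsin, 130 and 143 with quisinostat, and 3 and 2 with mivebresib. The rise with quisinostat was 1.89 ± 0.20 (edgeR adjusted p = 9e-05). The control level was 12.7 times that with mivebresib, with a 95% exact binomial interval of 5.18 to 40.5 for counting error (edgeR adjusted p = 0.000101).

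Of 18 genes for calcium stores, pumps and exchangers, 17 were tested. Of these 6 rose and 3 fell with romidepsin, 9 and 3 with quisinostat, and 4 and 1 with mivebresib, where 15.2% and 15.8%, 28.0% and 25.1%, and 22.2% and 24.1% of all tested genes did. The medians were 0.26, 0.68 and 0.24, or 0.20, 0.68 and 0.17 with genes at 0 in the control set to their lower bound or left out. SLC8A2, a sodium-calcium exchanger of neurons, had 1 and 8 counts in the control, 33 and 41 with romidepsin, 330 and 344 with quisinostat, and 1 and 4 with mivebresib. It rose by 2.94 ± 0.64 and 6.01 ± 0.61 with the HDAC inhibitors (edgeR adjusted p = 0.00408 and 9.44e-06), while the mivebresib value was -0.81 ± 0.97 (0.502). Its size rests on the control reads, since without control replicate 1 the rises were 2.13 and 5.17, and without control replicate 2 they were 5.01 and 8.07.

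ATP2B2 and ATP2B3, plasma membrane calcium pumps, were also close to silent in the control and rose with quisinostat. ATP2B2 had 0 counts in both controls and 59 and 74 with quisinostat, at least 22.5-fold higher than a floor of 3 counts per control library. ATP2B3 had 4 and 1 counts in the control and 140 and 207 with quisinostat, a rise of 5.87 ± 0.80 (edgeR adjusted p = 3.26e-05), or 7.08 without control replicate 1 and 5.23 without control replicate 2. ATP2B3 also rose with romidepsin (31 and 16 counts), a call lost under 1 of 15 alternatives. SLC8A3, another sodium-calcium exchanger, had 0 counts in both controls, 2 and 4 with romidepsin, and 16 and 18 with quisinostat, at least 5.75-fold higher than the same floor. RYR1, a calcium release channel, rose with quisinostat by 1.86 ± 0.61 (edgeR adjusted p = 0.0221), a call lost without control replicate 1 (0.0968) or quisinostat replicate 1 (0.151). STIM2, a calcium sensor of the endoplasmic reticulum, had 348 and 495 counts in the control and 1188 and 1264 with mivebresib, a rise of 1.55 ± 0.15 (edgeR adjusted p = 9.27e-05). Its counts were also above both controls with romidepsin (636 and 682) and quisinostat (756 and 779).

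CHP2, a calcineurin-like calcium binder, had 5 and 6 counts in the control, 19 and 27 with romidepsin, 50 and 25 with quisinostat, and 25 and 17 with mivebresib. It rose with each drug, by 1.98 ± 0.59, 2.56 ± 0.57 and 1.92 ± 0.59 (edgeR adjusted p = 0.0255, 0.00301 and 0.0197). The romidepsin call was lost without control replicate 1 (0.0707) or either romidepsin library (0.0568 and 0.121), and the mivebresib call without control replicate 1 (0.0604) or mivebresib replicate 1 (0.110). NECAB1, a neuronal EF-hand protein, rose by 1.42 ± 0.15 with romidepsin and 1.57 ± 0.14 with quisinostat (edgeR adjusted p = 0.000297 and 4.53e-05), and CABP1, a calmodulin-like protein of neurons, by 3.37 ± 0.66 with quisinostat (0.000839).

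**Figure D4:**
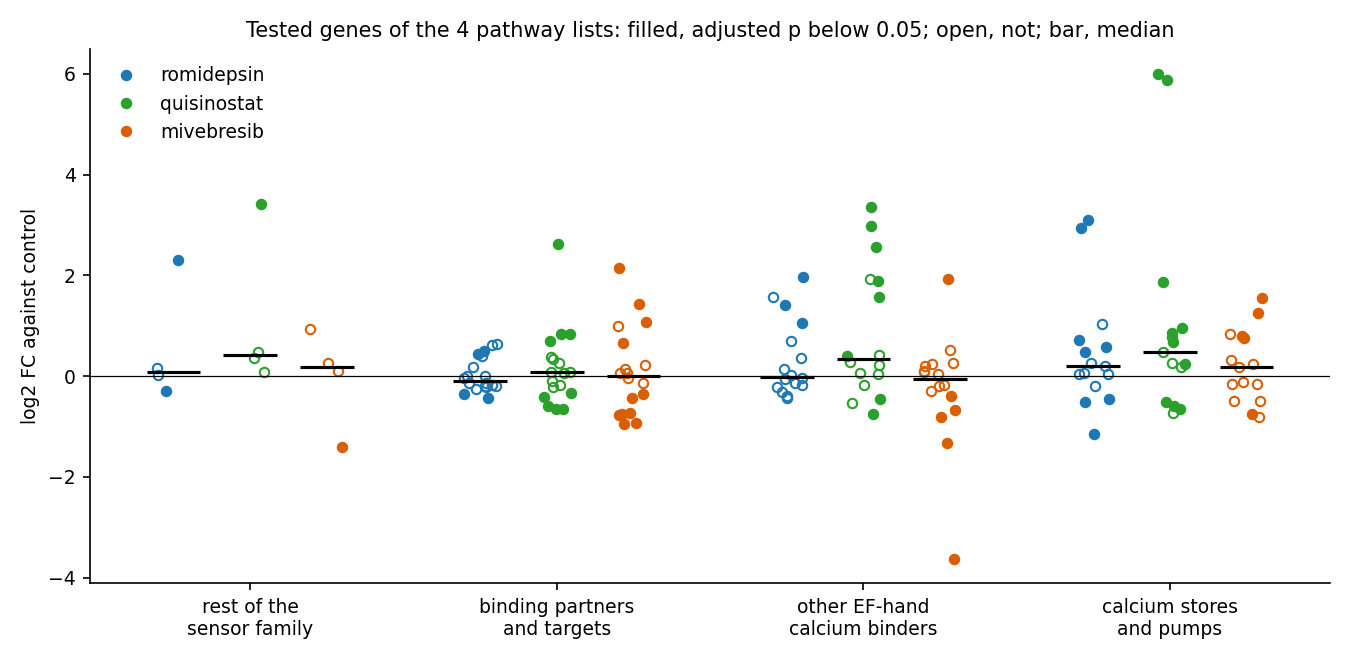
Log2 FC against control (y axis) of the tested genes of the 4 calcium signalling lists, by drug. Filled points had an edgeR adjusted p below 0.05, open points did not, bars are medians of the points shown, and CHRNA4, ATP2B2 and SLC8A3, each at 0 in a whole group, are left out. The highest points are with quisinostat among calcium stores and pumps, where SLC8A2 reached 6.01.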

How the data were processed

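Strand-specific paired-end mRNA libraries of 8 MP38 samples, 2 per group, were deposited as raw counts per gene symbol. Per the submitters' processing notes the build was hg38. The authors used BioJupies, and the aligner, annotation and strand setting are not given in the sources used here. A deposited table of log10(CPM + 1) matched the counts and added nothing, and a quantile-normalized table on an unnamed scale was not used. Counts were fitted with edgeR 4.0.16 (quasi-likelihood, TMM factors, filterByExpr) in 1 model over 8 libraries, with Benjamini-Hochberg adjustment over 15085 genes (R 4.3.3). Changed means an adjusted p below 0.05, and the stricter limit of the study adds a log2 FC beyond 1.5. SE values come from that model and SD values from 2 libraries. The scripts were tested on simulated data.

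The genes and lists were chosen with earlier results of these data known. Named genes were the 7 of the family, list genes past both limits with any drug, the 2 most abundant list genes, the 5 nearest profiles, neighbours of HPCAL4 and overlapping genes. One of the abundant list genes and 1 marker are not reported here. KCNIP3, KCNIP4, GUCA1B, NMT1, NMT2, PI4KB, ITPR2 and ITPR3 were named after their values were seen. Alternatives were DESeq2 1.42.0, limma-voom 3.58.1, library size alone, upper-quartile factors, other filters and thresholds, a replicate block, the 4 libraries of a comparison alone, and each library left out.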

Additional observations from a re-analysis of the deposited data

How the results depend on the processing

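Without 1 library the log2 FC of HPCAL4 against control ranged from 4.58 to 5.39 with romidepsin, 6.76 to 7.59 with quisinostat and 4.53 to 5.36 with mivebresib, moving most without either control library, where it rests on 4 or 7 reads. No result changed sign while past its threshold under any alternative. At an adjusted p below 0.05 with no limit on size, the other relatives past it were 1 higher and 1 lower with romidepsin, 1 higher and 1 lower with quisinostat, 1 higher and 2 lower with mivebresib, 1 higher with quisinostat than with romidepsin, and 1 higher and 1 lower with mivebresib than with either other drug. With limits of 0.01 on the adjusted p and 1 on the log2 FC, they were 1 higher with romidepsin, 1 higher with quisinostat, 1 higher with quisinostat than with romidepsin, 1 higher and 1 lower with mivebresib than with romidepsin, and 1 lower with mivebresib than with quisinostat. The share of all tested genes past these limits was not counted, so these counts cannot be read against it. For the calcium lists, the limit on p alone gave 13 higher and 6 lower with romidepsin, 21 and 10 with quisinostat, and 9 and 14 with mivebresib. With a mean of at least 5 CPM, fewer genes were tested and 0 were higher with romidepsin, 2 higher with quisinostat and 0 lower with mivebresib. Shares of all tested genes were not counted under this filter or with a library left out, so these list counts have no such comparison. Without 1 library the list counts ranged from 2 to 4 higher with romidepsin, 12 to 15 higher with quisinostat, 1 to 5 higher with mivebresib and 1 to 2 lower with mivebresib. The deviations of same-numbered libraries correlated between 0.20 and 0.37 among control, quisinostat and mivebresib and from -0.42 to -0.18 between romidepsin and the other groups, so the numbers did not pair all samples. The replicate block gave HPCAL4 a log2 FC of 4.92, 7.13 and 4.90, and among the relatives it cost only the HPCAL1 difference of mivebresib minus quisinostat (0.49, edgeR adjusted p = 0.0557). With 4 and 7 control reads, counting limits how closely the HPCAL4 rise is known, and groups of 2 allowed no check for an outlying library.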
